A study of Mus musculus with 8 samples.

Results

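Intergenic Pax6 binding sites lying less than 50 kb from the start of the nearest annotated gene were examined. They were taken from a deposited table of Pax6 sites as all rows annotated as distal intergenic with a distance below 50 kb, upstream or downstream. The rule used position only and no binding value. It gave 4900 of 26244 sites (18.7%), which is 64.7% of the 7576 intergenic sites. Binding was measured by chromatin immunoprecipitation with sequencing (ChIP-seq) with an antibody to Pax6 in alphaTC1 cells, an established glucagon-producing mouse pancreatic alpha-cell line. Antisense oligonucleotides were used on the cells, either with a scrambled sequence (control knockdown, control KD) or against Paupar (Paupar KD). There were 2 Pax6 ChIP libraries in each group, described as biological duplicates, and 4 input libraries that were not analysed here. All libraries came from this same line, and this assay did not measure how far the Paupar transcript was reduced.

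Pax6 is a transcription factor with a paired domain and a homeodomain, needed for the development and hormone expression of islet endocrine cells. Paupar, a neighbour of the Pax6 gene, is a long non-coding RNA known in neural cells to occupy chromatin together with Pax6. Sites away from promoters can act as enhancers, whose targets need not be the nearest gene, so the gene names used for sites below are positional labels.

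The deposited table gave, for each site of 100 bp, a mean concentration per group, read here as the log2 of normalised ChIP signal, with the authors' false discovery rate (FDR) for the difference between groups. No value per library is held in that table, so a spread between libraries cannot be given beside a concentration. Changes are written as Paupar KD minus control KD, and a site was called higher or lower where the authors' FDR was below 0.05. A separate list of peak summits for each library shows in which libraries a site was found. A site was given a summit where one lay within 250 bp of its middle. The read depth of the libraries is unknown. The summit lists held 14311 and 9983 entries for control KD replicates 1 and 2, and 15611 and 17942 for Paupar KD replicates 1 and 2. A summit score (−log10 of the q-value) is the peak caller's own value in its library, and scores of different libraries are not on a common scale.

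The sequences of 33 members can be shown, because these lie wholly within a RefSeq promoter window, which runs from 250 bases before to 50 bases after a RefSeq gene start. They are sites that the deposited annotation placed far from any gene start and that RefSeq places at one, in 30 cases that of a gene with a provisional Gm name. The 6 printed here were chosen as the 4 with the highest mean concentration and the 2 that hold a searched Pax6 motif. They are the forward strand of GRCm38.p6 (mm10), from RefSeq, named by the assigned gene. In the Lrp3 site the capitals mark the 31 bases within the tRNA gene n-TTagt9, in the Mc3r site the motif TTCACGC (read on the reverse strand), and in the Grifin site a homeodomain palindrome.
Lrp3 site (chr7:35234813-35234912): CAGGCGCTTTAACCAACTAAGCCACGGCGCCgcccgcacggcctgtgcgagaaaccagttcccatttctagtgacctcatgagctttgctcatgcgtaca
Wdr5 site (chr2:27540244-27540343): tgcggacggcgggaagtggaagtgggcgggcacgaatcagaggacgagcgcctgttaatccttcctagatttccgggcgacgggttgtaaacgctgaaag
Lrrc8c site (chr5:105495268-105495367): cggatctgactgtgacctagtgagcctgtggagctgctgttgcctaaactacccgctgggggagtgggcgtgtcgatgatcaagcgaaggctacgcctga
Gstm6 site (chr3:107953444-107953543): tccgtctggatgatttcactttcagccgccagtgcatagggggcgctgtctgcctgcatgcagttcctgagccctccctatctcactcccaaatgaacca
Mc3r site (chr2:172276292-172276391): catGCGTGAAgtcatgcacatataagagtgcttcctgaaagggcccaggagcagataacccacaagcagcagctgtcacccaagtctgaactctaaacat
Grifin site (chr5:140549814-140549913): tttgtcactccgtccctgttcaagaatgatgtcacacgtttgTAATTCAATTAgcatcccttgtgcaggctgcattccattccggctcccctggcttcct

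TTCACGC, a core of the paired-domain site, and the palindrome bound by paired-class homeodomain dimers, TAAT and ATTA with 3 bases between them, were searched on both strands. Each was found in 1 of the 33 members (3.03%). Among the 1227 sites of the table that lie in such windows, TTCACGC was in 1.06% and the palindrome in 0.163%. In all 32851 promoter windows of 300 bases the shares were 1.26% and 0.487%. A match is a description of the letters only. The Mc3r site, 27.8 kb from the start of a melanocortin receptor gene, was listed in the authors' deposited table at 4.60 for control KD and 6.14 for Paupar KD (FDR 0.381). Its summits were in control KD replicate 1 and both Paupar KD libraries. The Grifin site had 2.75 and 4.07 in the authors' deposited table (FDR 0.526), and Paupar KD replicate 1 was the single library with a summit there. The 33 windows had a GC content of 46% to 69%, with a median of 55%, and 0 of them were called in either direction. Of the 1227 sites in such windows, 9 were called higher and 39 lower, and over all sites 3.26% and 0.846%. At such shares, 33 sites are too few for 0 calls to be read as a result.

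The label distal intergenic was checked against RefSeq genes for the 4757 members on chromosomes covered by the RefSeq tables used here. Of these, 864 (18.2%) lay inside a RefSeq gene, 672 of them in a long non-coding RNA gene. A RefSeq start stood within 3 kb of 367 members (7.71%), of which 5 were called higher (1.36%) and 3 lower (0.817%). Of the 4390 members farther from every RefSeq start, 3.85% were higher and 0.683% lower, and over all sites 3.26% and 0.846%. The median mean concentration of those 367 was 4.59 in the authors' deposited table, against 4.27 for the 4390 others. Intergenic thus describes these sites under the annotation that the authors used.

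Members lay between 3.01 and 49.97 kb from the assigned start, with a median of 18.0 kb and quartiles of 9.51 and 30.0 kb. Upstream of the start lay 3056 (62.4%). They were assigned to 2993 genes, of which 1953 had 1 member and 1040 had more. Of the members, 4111 were assigned to a protein-coding gene, 654 to a long non-coding RNA gene, 94 to a miRNA gene and 11 to a snoRNA gene. Chromosome 1 held the largest number (525) and chromosome X the smallest (45). Among pairs of members next to each other along a chromosome, 1387 pairs lay less than 10 kb apart.

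By the authors' deposited table, 177 members (3.61%) were called higher after Paupar KD and 36 (0.735%) were called lower. Among all 26244 sites, 855 were higher (3.26%) and 222 lower (0.846%), so the members' shares lay close to those of the whole table. Of the 213 called members, 83.1% were higher, against 79.4% of all called sites. In the authors' deposited table the members had a median log2 change of 0.05, and all sites one of -0.03. Median concentrations at members were 4.20 (control KD) and 4.35 (Paupar KD), against 4.34 and 4.48 over all sites, in the authors' deposited table. The 7216 promoter sites had a median mean concentration of 5.15, the members 4.28. For another 185 members, with mean concentrations up to 2.62, the listed FDR was taken as not usable. They were read, from their listed p-values and FDR, as lying outside the authors' adjustment, which is not described.

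**Figure D1:**
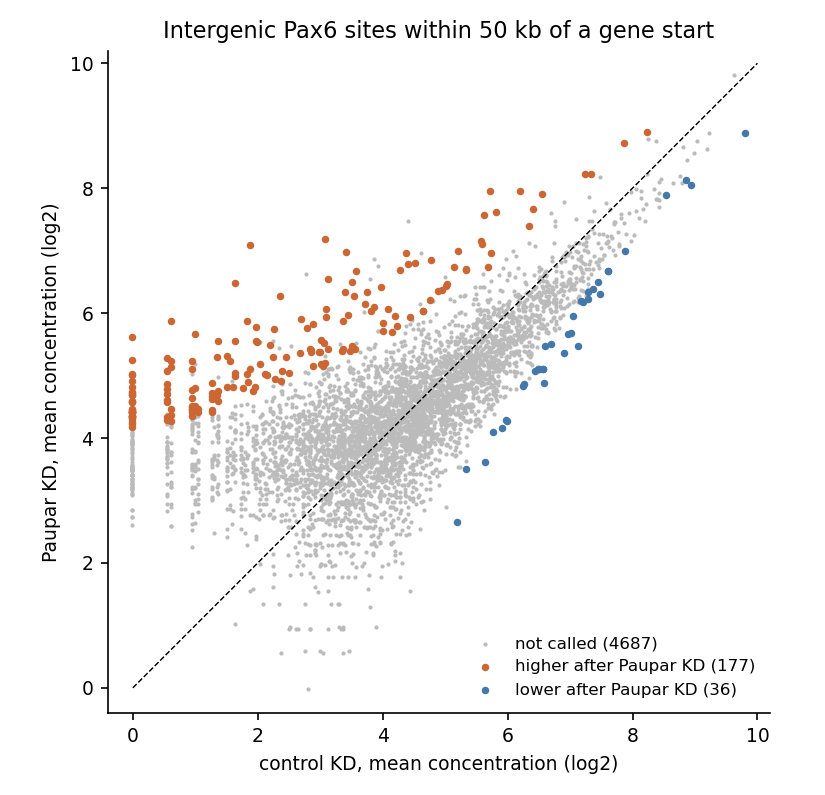
Mean concentration (log2) of each of the 4900 members in control KD (horizontal axis) and Paupar KD (vertical axis), as deposited by the authors, with the dashed line marking equal values. The 177 members called higher (orange) stretch from the control KD floor at the left edge up to 8.23, and the 36 called lower (blue) sit to the right, from 5.19 in control KD upwards.

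The higher members were spread over the whole range of signal, and the lower members lay mostly in its top class. The medians of the 177 higher members in the authors' deposited table were 1.97 for control KD and 5.29 for Paupar KD. In control KD, 30 of them were listed at the floor of the scale (-0.01), where the deposited fold is taken over a floor value and is not printed here. The other 147 had a median log2 change of 2.92, from medians of 2.70 and 5.43. The 36 lower members had medians of 6.94 and 5.49 in that table, a median change of -1.32. The 4 classes of members by mean concentration, split at 3.57, 4.28 and 5.12, held 27, 51, 45 and 54 higher members, from the lowest class to the highest. The lower members numbered 0, 0, 3 and 33 in the same order. The median log2 change also differed along these classes, at 0.76, 0.24, -0.06 and -0.30 in the authors' deposited table. All sites of the table, cut into 4 such classes of their own, showed a similar arrangement. They held 110, 305, 244 and 196 higher sites and 0, 7, 27 and 188 lower ones. Their median log2 changes were 0.72, 0.20, -0.12 and -0.36. Those classes were cut on the mean of both groups and share its values, so they describe where the calls lie and test nothing.

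The summit lists gave a view of single libraries. A summit was found at 49.96% and 35.4% of the members in control KD replicates 1 and 2, and at 55.4% and 60.5% in Paupar KD replicates 1 and 2. Both Paupar KD libraries lay above both control KD libraries. The means were 42.7% ± 10.3 in control KD and 58.0% ± 3.58 in Paupar KD (SD, n = 2 each), a difference of 15.3 percentage points (exact permutation test over libraries, two-sided, p = 0.333, the smallest that 2 against 2 allow). The order of the libraries is also that of the lengths of their summit lists. With each list kept to its 9983 strongest summits, the shares were 35.5%, 35.4%, 35.8% and 35.0%, and the difference was -0.05 percentage points. Read from the other side, 17.1%, 17.4%, 17.4% and 16.5% of a library's summits lay at members, a difference of -0.30 points (exact permutation test, two-sided, p = 0.667).

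**Figure D2:**
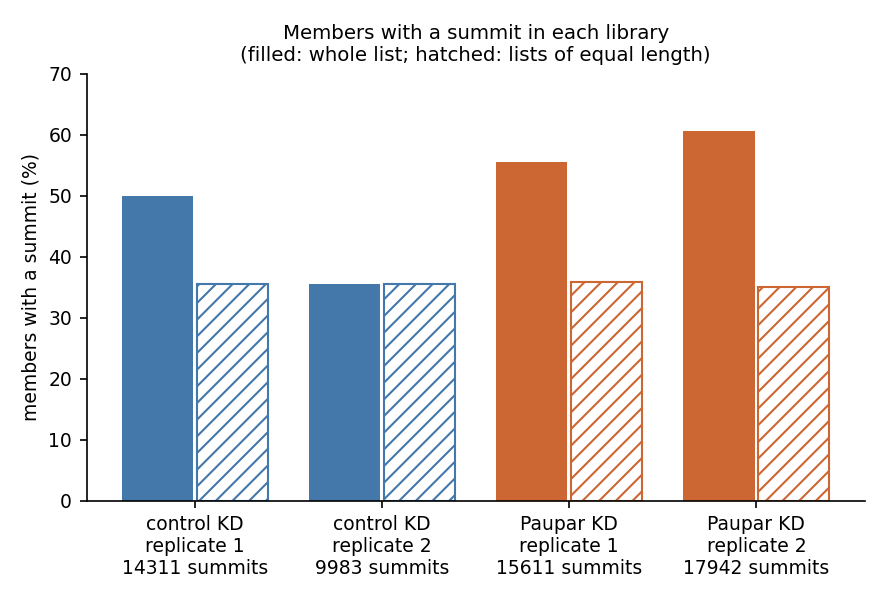
Percent of the 4900 members with a summit within 250 bp in each Pax6 ChIP library (control KD blue, Paupar KD orange), from the whole list (filled bars) and from the 9983 strongest summits of each list (hatched bars). Filled bars run from 35.4% to 60.5%, and hatched bars from 35.0% to 35.8%.

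All 4 libraries had a summit at 958 members (19.6%), while 2172 (44.3%) had one in a single library and 168 in none. Of the 177 higher members, 140 had no control KD summit, and 115 had a summit in both Paupar KD libraries. Over all members, summits were present at 2448 and 1737 in control KD replicates 1 and 2. In Paupar KD replicates 1 and 2 they were present at 2717 and 2965. Calls and summits come from the same libraries, so here and below the summits describe called members and do not test the calls. A summit in both Paupar KD libraries alone was present at 419 members, 79 of which were called higher. A summit in Paupar KD replicate 1 alone was present at 675 members, 50 of which were called higher. A summit in Paupar KD replicate 2 alone was present at 717 members, 9 of which were called higher. The 177 were found in Paupar KD replicate 1 at 165 members and in replicate 2 at 125. The 36 lower members had summits in control KD replicates 1 and 2 at 32 and 34 members, and in Paupar KD replicates 1 and 2 at 29 and 33. All 4 libraries held a summit at 24 of the 36 lower members and at 21 of the 177 higher ones.

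Among the higher members with a very low FDR, some had a summit in every library and others had none in control KD. A site 40.0 kb upstream of the non-coding gene 4930432O09Rik went from 6.20 to 7.95 in the authors' deposited table (FDR 6.64e-08). It had scores of 62.5 and 23.5 in control KD and 188 and 237 in Paupar KD, so all 4 libraries held it. At Mir5103 a site 33.6 kb downstream of the start went from 5.62 to 7.57 in the authors' deposited table (FDR 1.14e-07), and it too had a summit in each library. Sites near Phactr4, which encodes a phosphatase and actin regulator, and Nobox, an oocyte homeobox gene, had no control KD summit. The Phactr4 site went from 3.58 to 6.68 in the authors' deposited table (FDR 9.39e-08), with Paupar KD scores of 64.2 and 50.9. The Nobox site went from 3.13 to 6.54 in the same authors' deposited table (FDR 1.13e-07), with Paupar KD scores of 48.6 and 51.6.

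The 10 largest rises among called members above a concentration of 1 in control KD ran from 3.80 to 5.22 in the authors' deposited table. They started from low control KD values, 1.34 to 3.07, against a median of 4.20 over members, so their size rests on little control KD signal. None of these 10 had a control KD summit, and all 10 had one in both Paupar KD libraries. The largest was 14.2 kb upstream of Mest, an imprinted gene, where the authors' deposited table gave 1.87 for control KD and 7.09 for Paupar KD. Its FDR was 0.0114, far above that of the 4930432O09Rik site, and its Paupar KD summit scores were 179 in replicate 1 and 17.3 in replicate 2. A site 20.5 kb from the start of Idh1, which encodes the cytosolic isocitrate dehydrogenase, had 3.07 and 7.18 in the authors' deposited table (FDR 0.0495), and its Paupar KD scores were 120 and 42.2. The site 8.13 kb upstream of 1110002J07Rik had 1.64 and 6.48 in the authors' deposited table (FDR 0.0113), with Paupar KD scores of 120 and 19.2. The Gm15706 site went from 1.82 to 5.87 in the authors' deposited table (FDR 8.06e-06), with scores of 37.8 and 33.5. The Hyal5 site, at a hyaluronidase gene, went from 1.97 to 5.77 in the authors' deposited table, with scores of 31.4 and 19.8. The remaining 5 were at Plekhh2, Epc2, Msgn1, 4930517M08Rik and Ptpdc1. Msgn1, a basic helix-loop-helix factor gene of the presomitic mesoderm, had its site nearest to a start, 3.96 kb upstream.

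**Figure D3:**
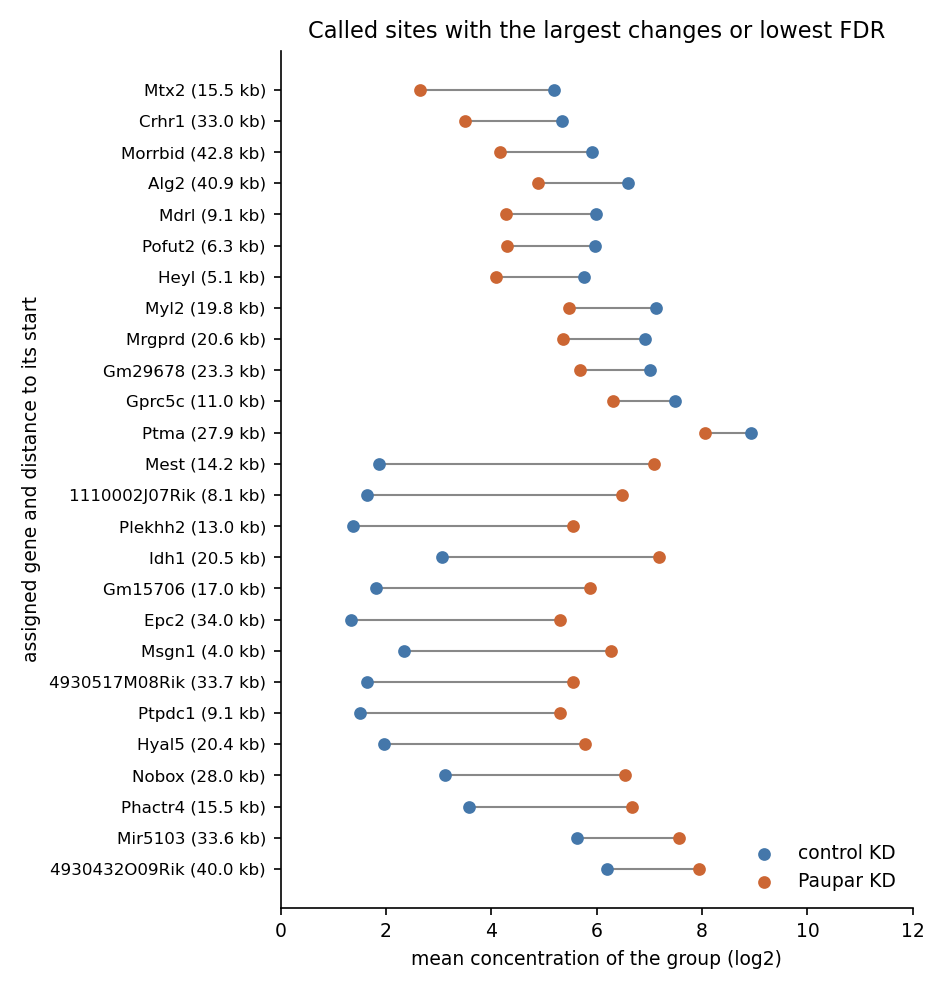
Mean concentration (log2, horizontal axis) in control KD (blue) and Paupar KD (orange) of called members chosen among those with the largest falls, the largest rises or the lowest FDR, each named by its assigned gene and distance. Falls start between 5.19 and 8.93 in control KD, while the 10 largest rises start between 1.34 and 3.07.

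The 10 largest falls were smaller, from -1.56 to -2.54 in the authors' deposited table, and 7 of the 10 had a summit in both control KD libraries. These falls started from higher control KD values than the rises, 5.19 to 7.12. The site with the lowest FDR among the lower members stood 19.8 kb upstream of Myl2, which encodes a cardiac myosin light chain, and went from 7.12 to 5.47 in the authors' deposited table (FDR 0.000265). Its summit scores were 54.2 and 25.8 in control KD and 15.5 and 24.3 in Paupar KD. A site 40.9 kb from the start of Alg2, an N-glycan mannosyltransferase gene, went from 6.59 to 4.88 in the authors' deposited table (FDR 0.00143). Its scores were 78.9 and 25.6 in control KD and 8.44 and 11.8 in Paupar KD. The Ptma site, upstream of the prothymosin alpha gene, was among the highest of all members and went from 8.93 to 8.05 in the authors' deposited table (FDR 0.00145). The largest fall was near Mtx2, a mitochondrial outer membrane protein gene, from 5.19 to 2.65 in the authors' deposited table (FDR 0.0367), and it rested on a summit in control KD replicate 2 alone. Other large falls were at Crhr1, the receptor gene of corticotropin-releasing hormone, Heyl, a Hes-related factor gene, Pofut2, an O-fucosyltransferase gene, and Mrgprd, a sensory neuron receptor gene. Gm29678 and Gprc5c, an orphan receptor gene, completed the 5 lower members of lowest FDR, at 0.00421 and 0.0045 in the authors' deposited table. The sites near Morrbid and Mdrl, both non-coding RNA genes, fell by 1.75 and 1.71 on the log2 scale in the authors' deposited table.

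The members with the highest signal were bound in every library. The highest was 8.77 kb upstream of BC003965, with 9.62 for control KD and 9.81 for Paupar KD by the authors' deposited table (FDR 0.647). All of the top 10 had a summit in each of the 4 libraries, and 2 of them were called. The Tmem51os1 site went from 9.80 to 8.89 in the authors' deposited table (FDR 0.00799), and the Trp53inp2 site, near an autophagy gene, went from 8.23 to 8.90 (FDR 0.0256). The Ldha site, 5.98 kb upstream of the lactate dehydrogenase A gene, had 8.37 and 8.75 in the authors' deposited table (FDR 0.297). The Serinc5 site had 9.20 and 8.62 in that authors' deposited table (FDR 0.0561). The remaining 5, at Arl4d, Gm19510, Tpst2, Thoc3 and 1700025C18Rik, did not pass the threshold.

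Within the 50 kb, the share of called members did not follow the distance in one direction. From the nearest bin to the farthest (3 to 5, 5 to 10, 10 to 20, 20 to 30, 30 to 40 and 40 to 50 kb), 4.72%, 3.46%, 3.08%, 3.29%, 4.62% and 3.89% were called higher. The lower members numbered 1, 8, 10, 8, 4 and 5 in the same bins. Median mean concentration was highest next to the promoter class, at 4.59 between 3 and 5 kb, and 4.18 between 40 and 50 kb, in the authors' deposited table. Of the upstream members 122 (3.99%) were higher and 21 lower, and of the 1844 downstream members 55 (2.98%) were higher and 15 lower. These shares are descriptions of sites, and the difference between them was not tested.

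Beyond 50 kb the share of higher intergenic sites was larger. It was 5.66% of 2156 sites between 50 and 200 kb and 6.35% of 520 sites from 200 kb, in the authors' deposited table. Lower calls made up 0.649% and 0.192% of these. The median log2 change was 0.17 and 0.34, against 0.05 in the members. Introns, with 9653 sites, had 3.80% higher and 0.611% lower and a median of 0.10. Promoters had 1.57% higher, 1.39% lower and a median of -0.23 in that table. The near and the far intergenic classes were compared over libraries by the share of sites with a summit. The near share minus the share from 50 to 200 kb was -0.88 and -0.45 percentage points in control KD replicates 1 and 2, and -5.54 and -0.58 in Paupar KD replicates 1 and 2. The group difference was -2.40 points (exact permutation test, two-sided, p = 0.667). With the whole lists it came from Paupar KD replicate 1, and without that library it was 0.09. With the lists cut to equal length as above, the values were -3.80 and -0.45 in control KD replicates 1 and 2. They were -8.06 and -4.45 in Paupar KD replicates 1 and 2, so both lay below both control KD libraries. The group difference was then -4.13 points (exact permutation test, two-sided, p = 0.333).

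**Figure D4:**
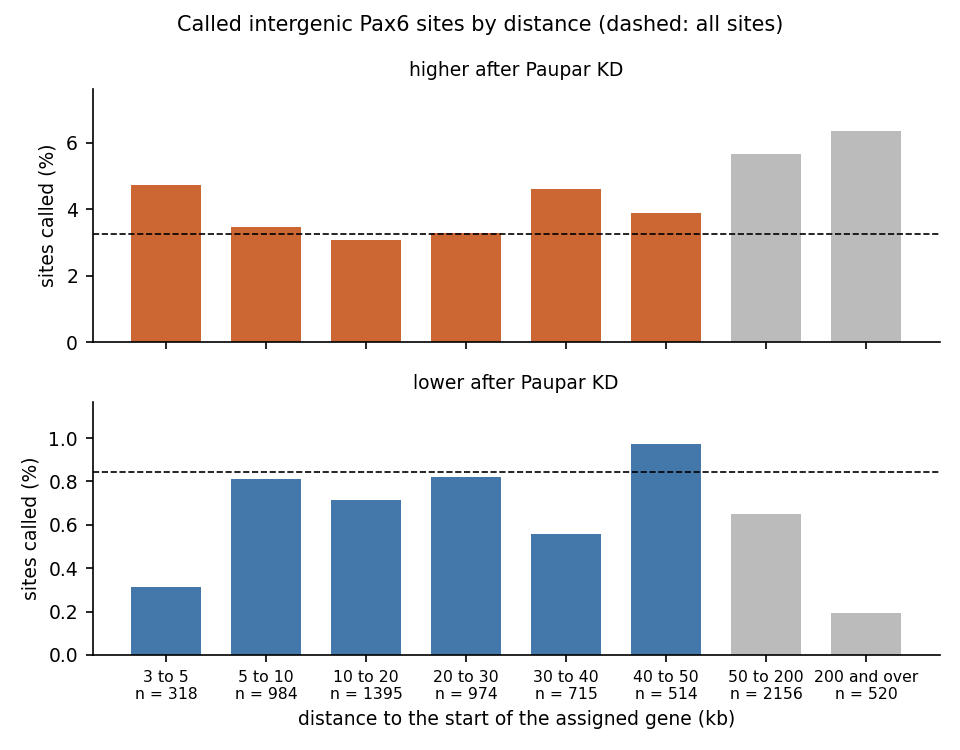
Percent of intergenic sites called higher (top) and lower (bottom) after Paupar KD, by distance to the start of the assigned gene in kb, with members in colour, intergenic sites beyond 50 kb in grey and the share over all sites as a dashed line. Among the members the higher share runs between 3.08% and 4.72%, and it is 5.66% and 6.35% in the grey bars.

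The 50 kb limit falls within a continuous range of sites. The 5 members just inside it, at Mir6337, Zhx2, 1700073E17Rik, Ndufa10 and Pgrmc2, lay from 49.89 to 49.97 kb away. The 5 intergenic sites just outside, at Ankrd46, Pwwp2b, C130026L21Rik, Sbf2 and 4933422A05Rik, lay from 50.04 to 50.22 kb away. Just inside, the Mir6337 site had 5.40 and 4.27 and the Pgrmc2 site 1.64 and 4.51 in the authors' deposited table. Just outside, the 4933422A05Rik site had 6.94 and 6.74 and the Ankrd46 site 4.87 and 3.61 in the authors' deposited table.

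Gm13003, a non-coding gene, had 12 members, the highest number, with mean concentrations from 2.62 to 7.38 in the authors' deposited table and 0 called. They spread from 137119061 to 137207329 on chromosome 4, and the 7 members of Wnt4 followed from 137231700. The non-coding genes 4930542M03Rik and Platr5 had 10 members each. Then came 5 genes with 9 members each: 2210417A02Rik, Atoh8, a basic helix-loop-helix factor gene, Cplx2, which encodes a complexin of synaptic and granule exocytosis, Hdac4, a histone deacetylase gene, and Sik1, which encodes a salt-inducible kinase. None of the 77 members of these 8 genes was called, beside 3.26% higher and 0.846% lower over all sites. Genes with 6 or more members, 44 in all, had 315 members, of which 4 were higher (1.27%) and 2 lower (0.635%). No gene had 3 called members, and 4 genes had 2, higher in each case.

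Those 4 genes were looked at site by site. Pde10a, which encodes a cyclic nucleotide phosphodiesterase, had 8 members. A pair of them, 40.9 and 42.4 kb upstream, were called in the authors' deposited table, the first with 2.79 and 5.76 (FDR 0.00045) and the other with 1.26 and 4.42 (FDR 0.0483). The next member, 37.3 kb upstream, had 6.18 and 5.33 in the same authors' deposited table (FDR 0.338). The called pair had summits in both Paupar KD libraries and in no control KD library. At Ywhaq, a phosphoserine-binding adaptor gene, members 7.16 and 26.5 kb upstream were called. In the authors' deposited table they went from 5.34 to 6.69 (FDR 0.00855) and from 4.75 to 6.21 (FDR 0.0189). Another Ywhaq member between them had 5.02 and 5.25 in the authors' deposited table (FDR 0.862). At Spin1, a histone reader gene, a strong site 27.7 kb upstream went from 7.86 to 8.72 in the authors' deposited table (FDR 0.00492). Its scores were 188 and 121 in control KD and 376 and 423 in Paupar KD, and the other called member lay 28.9 kb upstream. At Ccdc190 both called members were at the control KD floor, and the authors' deposited table gave 4.36 and 4.33 for Paupar KD. Paupar KD replicate 1 was the single library with a summit at either.

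Of the 177 higher members, 59 had another site of the table within 5 kb, and 8 of these (13.6%) had a neighbour called higher and 0 a neighbour called lower. Among the 1745 uncalled members with such a neighbour, 67 (3.84%) had one called higher and 18 (1.03%) one called lower. Higher members within 5 kb of each other, as at Pde10a, Spin1 and Ccdc190, are each counted among the 8, so such a pair counts from both ends. An uncalled member cannot be counted in this way. Neighbouring sites share libraries, and the difference between these shares was not tested. The 72 uncalled neighbours, counted for each called member, had a median of 0.23 for the log2 change in the authors' deposited table. Of the 36 lower members, 13 had such a neighbour, none of them called, and the 17 uncalled ones had a median of -0.41. Across 922 pairs of adjacent sites less than 5 kb apart, both of them members, Pearson's r of the log2 changes was 0.15, and across 916 pairs 20 to 100 kb apart it was 0.11. These pairs share libraries and normalisation.

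Members were set beside the promoter of the gene they were assigned to. A promoter site was listed for the gene of 1821 members, from 1006 genes, and its strongest one was used. The member had the higher mean concentration in 27.6% of cases. The median was 5.47 at the promoters and 4.26 at the members in the authors' deposited table. Of 68 higher members with such a promoter site, 1 had its promoter called higher (1.47%) and 2 had it called lower (2.94%). Over all 1821 members these shares were 1.92% and 1.26%, so the counts lay near them. The promoter called higher was at Stk32a, a kinase gene, where both sites were at the control KD floor. In the authors' deposited table a Smap1 member went from 0.99 to 4.80, while its promoter went from 6.91 to 5.70 (FDR 0.0119). A Tyw5 member in the authors' deposited table went from 3.08 to 5.20, while its promoter went from 8.75 to 7.94 (FDR 0.0108). Of 13 lower members with a promoter site, 0 had it called. Across the 1821 members, Pearson's r between the log2 change of the member and of the promoter was 0.03, over sites that share libraries and, within a gene, a promoter.

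A group of members stood on tRNA genes, the short genes read by RNA polymerase III. With the 408 nuclear tRNA genes of RefSeq used here, 54 sites of the table overlapped, and 33 of these sites (61.1%) were members. The median mean concentration of the 33 was 5.42, against 4.27 in the other 4867 members, in the authors' deposited table. It was 5.555 over all 54 tRNA sites and 6.19 over the 16 tRNA sites in promoters, so it was not particular to the members. A summit in all 4 libraries was present at 14 of the 33 (42.4%), at 44.4% of the 54 and at 19.4% of the other members. In the members' top class by mean concentration, from 5.13 up, that share was 64.3%. On chromosome 13, 15 of the 33 members on tRNA genes lay between 21.2 and 23.5 Mb, next to histone and Trim27 genes. The strongest was the Lrp3 site whose sequence is given above, with 8.80 and 8.09 in the authors' deposited table (FDR 0.0646) and scores of 220, 128, 103 and 173 in the 4 libraries. The n-TLcaa4 site near Trim27 had 7.17 and 6.71 in the authors' deposited table (FDR 0.429), also with a summit in each library. Of the 33, 3 were called higher (9.09%) and 0 lower, beside 3.58% and 0.740% of the other members and 3.26% and 0.846% over all sites. Of all 54 tRNA sites, 5 were higher (9.26%) and 1 lower. The n-TScga1 site near Prss16 went from 1.84 to 4.89 in the authors' deposited table (FDR 0.0208), with a summit in each Paupar KD library and in neither control KD library. The n-TDgtc4 site near Fcgr4 was at the control KD floor, and at 5.25 after Paupar KD, by the authors' deposited table (FDR 0.00143). The n-TKctt11 site near C230035I16Rik was also at the floor and reached 4.44 in the authors' deposited table (FDR 0.0263). A further site of Fcgr4, on n-TNgtt6, had a log2 change of -0.02 at a mean concentration of 6.99, both as in the authors' deposited table, and it had summits in all 4 libraries. tRNA genes occur as near-identical copies, and how reads that match several copies were placed is not given in the sources used here, so values of single copies are uncertain. Whether the input libraries carry signal at these sites was not tested. The 143 members on chromosome 18 were not matched to tRNA genes and are counted here among the other members.

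**Figure D5:**
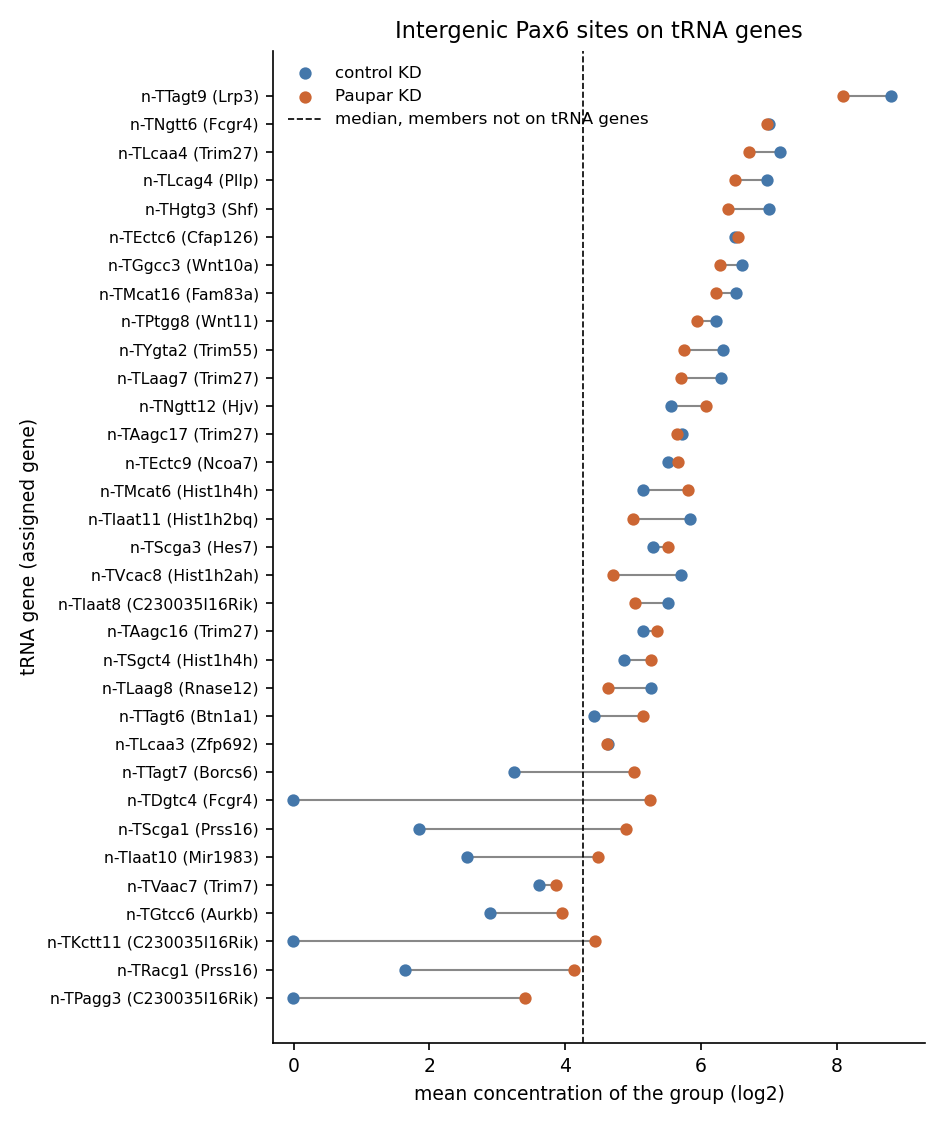
Mean concentration (log2, horizontal axis) in control KD (blue) and Paupar KD (orange) of the 33 members that overlap a tRNA gene, named by the tRNA gene and the assigned gene, with the median of the other members as a dashed line. The Lrp3 site at the top has 8.80 and 8.09, and the sites of the 3 called members start at or below 1.84 in control KD.

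The members were then read by gene lists for islet biology and Pax6 targets, 13 lists with 499 genes. Of these genes 112 had a member, 207 members in all. They held 6 higher (2.90%) and 1 lower (0.483%), beside 3.26% and 0.846% over all sites, and their median log2 change was -0.10 by the authors' deposited table. Single lists held 5 to 44 members, and at the shares over all sites few or no calls are expected in a list. Of the 9 members of alpha-cell identity genes, among them Irx1, Irx2, Pappa2, Slc38a5 and Wnk3, 0 were called, and their median change was -0.41. The highest of that list was 43.8 kb upstream of Pappa2, a protease gene, with 3.93 and 6.75 in the authors' deposited table (FDR 0.0974) and scores of none, 4.02, 124 and 33.7. Of 5 members of beta-cell identity genes, at Glp1r, Npy and Slc30a8, 0 were called, and the strongest, 24.2 kb upstream of Glp1r, the receptor gene of glucagon-like peptide, had 5.03 and 4.66 in the authors' deposited table.

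Among 21 members of islet transcription factor genes, 1 was called. At Sox4, an endocrine progenitor factor gene, a site 21.2 kb upstream went from 4.15 to 5.69 in the authors' deposited table (FDR 0.0472), with summits in all 4 libraries. The strongest site of the list, 21.7 kb upstream of Tox3, had 7.17 and 6.83 in the authors' deposited table (FDR 0.582). At Isl1, a LIM homeodomain gene of islet cells, a site 9.38 kb from the start had 6.76 and 6.29 in the authors' deposited table (FDR 0.544). Hhex, a delta-cell homeobox gene, had 5.98 and 6.87 in the authors' deposited table (FDR 0.101). Of 14 members of prohormone processing and granule genes 0 were called. Chga, the chromogranin A gene, had 7 of them, and the nearest, 3.40 kb upstream, had 6.19 and 6.18 in the authors' deposited table.

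Of 23 members of exocytosis genes 1 was called. At Snap25, which encodes a SNARE protein of granule fusion, a site 3.19 kb upstream went from 2.26 to 5.74 in the authors' deposited table (FDR 0.000173). It had no control KD summit and Paupar KD scores of 35.1 and 19.6. A second Snap25 member, 33.5 kb upstream, had 6.16 and 5.58 in the authors' deposited table (FDR 0.553).

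Of 29 members of G protein-coupled receptor genes, 1 was higher and 1 lower. The site 12.2 kb upstream of Galr1, a galanin receptor gene, went from 7.17 to 6.19 in the authors' deposited table (FDR 0.0449). Its scores were 57.4 and 52.3 in control KD and 24.7 and 46.5 in Paupar KD. The site 30.5 kb from the start of Adra2a, the adrenergic receptor gene that restrains insulin release, went from 2.37 to 4.92 in the authors' deposited table (FDR 0.0477), and its summit was found in Paupar KD replicate 2 and in no other library. At Gcgr, the glucagon receptor gene, the strongest of 3 members had 7.41 and 6.82 in the authors' deposited table (FDR 0.288), with summits in all 4 libraries. A Gpr142 site 23.9 kb from the start had 6.35 and 4.96 in the authors' deposited table (FDR 0.0551). Of 15 members of ion channel genes 0 were called, and the strongest was 41.8 kb upstream of Cacna1a, a calcium channel gene, with 8.13 and 7.95 in the authors' deposited table.

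Of 9 members of lens and eye target genes 0 were called, and of 7 members of neural target genes 1 was. The strongest of the first list, upstream of Atoh7, a retinal basic helix-loop-helix gene, had 5.75 and 5.78 in the authors' deposited table, with summits in all 4 libraries. The called neural member was 36.8 kb from the start of Hes1, a Notch effector gene, and went from 4.78 to 6.85 in the authors' deposited table (FDR 7e-05). Its scores were 15.0 and 6.57 in control KD and 90.7 and 93.3 in Paupar KD. Another pair of Hes1 members, 47.1 and 48.3 kb away, had FDR values of 0.311 and 0.797 in the authors' deposited table.

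Of 44 members of Wnt and TGF-beta genes 1 was called, 4.63 kb upstream of Bmpr1a, a BMP receptor gene. It went from 3.48 to 5.40 in the authors' deposited table (FDR 0.0426), with summits in both Paupar KD libraries only. Wnt4 had the strongest site of the list, 24.4 kb from its start, with 7.34 and 6.62 in the authors' deposited table (FDR 0.206). Of 17 members of insulin and growth factor genes 1 was called, 14.3 kb upstream of Dusp4, a MAP kinase phosphatase gene. It went from 3.75 to 6.33 in the authors' deposited table (FDR 2.4e-05), with scores of 14.8 and none in control KD and 83.7 and 54.6 in Paupar KD. A second Dusp4 member, 46.3 kb upstream, had 0.99 and 4.33 in the authors' deposited table (FDR 0.0532). The strongest member of that list, at Dusp1, had 6.53 and 6.70 in the authors' deposited table (FDR 0.846). Of 7 members of axon guidance genes and 12 of circadian and nuclear receptor genes, 0 were called. Their strongest members, near Sema4d, a semaphorin gene, and Nr1d1, the gene of the clock receptor Rev-erb alpha, had 4.32 and 4.47 and 6.28 and 6.04 in the authors' deposited table. Median log2 changes of the 13 lists ran from -0.41 to 0.50, the latter over the 7 neural members, beside -0.03 over all sites in the authors' deposited table. No list held more than 1 call in a direction. Beside 3.26% higher and 0.846% lower over all sites, these counts are not read as results about the lists.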

How the data were processed

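Per the submitters' processing notes, Bowtie2, MACS2, DiffBind and ChIPseeker were used on mm10; versions, DiffBind's test and normalisation, and the role of the inputs are not stated there. The deposited table holds the authors' mean concentration per group and their fold, read as log2 (the column names do not state the scale). The authors' fold is control KD minus Paupar KD and its sign was turned. The authors' p-value and FDR were used as deposited, since group means allow no test of sites here. Summits were called per library, and the deposited score was taken to be −log10 of the q-value, since its lowest value was near 2.00. The summit list used for control KD replicate 2 has a different replicate number in its name; its sample decided the assignment.

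Python 3.11.15, pandas 2.3.3, NumPy 2.4.6 and SciPy 1.17.1 were used. Members were selected by annotation and distance. Spreadsheet dates in place of the symbols of 14 members (6 genes) were restored from the gene ID with RefSeq GRCm38.p6, which held 99.98% of the members' IDs; chromosome 18, with 143 members, was not used here for RefSeq matching. Library shares were compared by exact permutation over 4 libraries. Same-numbered libraries did not deviate together (correlation -0.02 over members). The matching of summits to sites was tested on simulated data. Sites were named by rank of change, FDR and mean concentration, by list and by number of members, and some sites that this rule names are not reported here; tRNA overlaps, the promoter windows and the further sites at Isl1, Hhex, Gpr142, Hes1 and Dusp4 were chosen after seeing the data. The members and lists were chosen with earlier results of these data known.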

Additional observations from a re-analysis of the deposited data

How the results depend on the processing

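The count of higher members (177) was 66 at an FDR of 0.01, 267 at 0.1 and 566 at an unadjusted p below 0.05. These limits act on all 4900 members, 3.61% of which were called higher in the main reading. Smaller sets of members gave smaller counts. Of 2942 members with a mean concentration of 4 or more, 116 were higher (3.94%). Of 2560 with a summit in at least 2 libraries, 116 were higher (4.53%), and of 3220 below 25 kb, 112 (3.48%). The count of lower members (36, 0.735%) was 7, 69 and 267 at the same FDR and p limits, and 23 of 3220 below 25 kb (0.714%). The lower share was 1.22% at a mean concentration of 4 or more and 1.37% with a summit in at least 2 libraries. The other alternatives kept both counts within 1.5 times. The median log2 change (0.05) was -0.14 at a mean concentration of 4 or more and -0.09 with summits in at least 2 libraries. The difference in members with a summit (15.3 points) was -0.051 at equal list length, and 8.02 to 22.5 with 1 library left out. The difference in the share of summits at members ran from -0.74 to 0.15 with 1 library left out, reversed without Paupar KD replicate 2. With 1 library left out, the near-minus-far difference ran from -4.88 to 0.088, reversed without Paupar KD replicate 1. Over the other summit windows, the stricter summit score and equal list length it ran from -4.13 to -2.10. With a replicate block, pairing libraries by number, the 3 differences were 15.3 (exact p = 0.5), -0.30 (exact p = 1) and -2.40 (exact p = 0.5). No paired analysis of the calls was possible because the table holds group means. Alternatives for the near-minus-far difference and those without tRNA members were chosen after seeing the data. Unknown depth and 2 libraries a group limit every value.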
